A study of Mus musculus with 16 samples.

Results

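The genes described here are 30 genes of cholesterol synthesis and of its control by the transcription factor SREBP2, followed across all groups of a mouse liver study. They were named by function, and a gene was measured by the array probe that carries its symbol, taking the probe with the highest mean signal over the 16 arrays where there were several. Of the 30 genes, 26 had a probe under that symbol and 24 were tested, out of 11338 tested features. The tested genes comprised 6 of 9 named enzymes from acetyl units to the isoprenoids (the mevalonate branch), 10 of 11 enzymes from squalene to cholesterol (the sterol branch), all 6 genes of SREBP2 control and 2 of 4 genes of sterol transport and uptake. Mvk, Fdft1, Acat2 and Npc1 had no probe under their symbol in the table and were not analysed here. Ggps1, the synthase of geranylgeranyl diphosphate, and Mylip, a ubiquitin ligase that degrades lipoprotein receptors, had no detection p-value under 0.05 on any of the 16 arrays, with normalized log2 levels of 4.6 to 5.29 and 4.75 to 5.39, and were not tested.

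Livers came from male FVB mice aged 10 weeks, which either carried a liver-specific knockout (KO) of LKB1, encoded by Stk11, or were wild-type (WT). LKB1 is a kinase that activates the energy sensor AMPK. KO and WT mice received carbon tetrachloride (CCl4), a liver toxicant, or its vehicle mineral oil, and others of both genotypes received AICAR, a nucleoside whose phosphorylated form activates AMPK, or saline as its vehicle. That gave 8 groups of 2 arrays. The sources used here state neither the driver of the deletion nor the doses or the times of collection. All groups share strain, sex and age, and no group was left untreated. Replicates are labelled as biological but are not tied to separate animals, so the p-values reflect no more than the spread of these samples, which may be technical. In whole liver, fewer cells of a type and less RNA per cell cannot be told apart.

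Cholesterol is built from acetyl units through mevalonate and squalene, and the liver is a main site of this synthesis. When the membrane of the endoplasmic reticulum is poor in sterol, Scap escorts SREBP2 to the Golgi, where the proteases encoded by Mbtps1 and Mbtps2 release the part that enters the nucleus and switches on the genes of nearly every step. Insig1 and Insig2 hold Scap back when sterol is plentiful, and Insig1 is itself a SREBP target. The enzymes of the pathway are therefore known to be transcribed together.

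The promoters of these genes were searched for the letters TCACNCCAC (a sterol regulatory element core), CCAAT (the NF-Y box) and GGGCGG (the Sp1 box) on both strands, in windows from 250 bases before to 50 bases after the start, in RefSeq sequence of build GRCm38.p6. Of the 30 genes, 25 had such a window, with 31 windows between them. The sterol core letters stood in 1 of these genes, Hmgcs1, which is 3.23% of their windows against 1.24% of 32851 windows of all genes. CCAAT stood in 64.5% of the genes' windows (20 genes), against 37.4% of all windows. GGGCGG stood in 77.4% (21 genes), against 35.7%. These promoters are shown in lower case with those letters, on either strand, in capitals. That of Hmgcs1 is shown because it alone held the sterol core. That of Tm7sf2 is shown because its values lay among the most different between genotypes under AICAR. That of Insig1 is shown because it is a control gene that is itself a target. Tm7sf2 and Insig1 were chosen after their values were seen. Each run ends at the base before the start, and in these runs 0 of the matches overlap.
Hmgcs1, chr13:119690101-119690350, plus strand: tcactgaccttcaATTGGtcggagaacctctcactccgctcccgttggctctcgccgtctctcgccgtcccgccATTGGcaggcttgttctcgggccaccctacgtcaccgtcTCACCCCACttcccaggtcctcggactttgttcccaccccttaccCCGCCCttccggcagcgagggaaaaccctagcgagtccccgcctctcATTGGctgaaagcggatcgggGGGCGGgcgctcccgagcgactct
Tm7sf2, chr19:6067851-6068100, minus strand: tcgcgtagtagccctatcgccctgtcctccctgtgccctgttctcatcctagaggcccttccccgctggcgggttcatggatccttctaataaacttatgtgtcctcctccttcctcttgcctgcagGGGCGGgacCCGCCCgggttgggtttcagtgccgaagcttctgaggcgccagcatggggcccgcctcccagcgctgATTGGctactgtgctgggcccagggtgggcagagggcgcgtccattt
Insig1, chr5:28071162-28071411, plus strand: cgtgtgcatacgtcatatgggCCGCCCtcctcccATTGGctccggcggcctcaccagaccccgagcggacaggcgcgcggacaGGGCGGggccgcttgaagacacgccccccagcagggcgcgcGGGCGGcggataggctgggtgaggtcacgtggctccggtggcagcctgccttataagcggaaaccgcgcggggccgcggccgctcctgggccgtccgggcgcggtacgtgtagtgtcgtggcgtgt

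The Hmgcs1 window held the sterol core 137 bases before the start, 3 CCAAT boxes and 2 GGGCGG boxes. The Tm7sf2 window held 1 CCAAT box, 47 bases before the start, and 2 GGGCGG boxes. Insig1 had 1 CCAAT box, 216 bases before the start, and 3 GGGCGG boxes. A match describes letters only, and a missing match says only that these letters are not in the window.

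Values below are background-corrected, quantile-normalized log2 signals of a probe, and a difference is the log2 difference between group means from limma, with its standard error (SE). A feature is called where limma's p, adjusted over all tested features, is under 0.05. The median signal of an array was 172.4 to 213.7 before normalization, and 12233 to 13730 probes were detected. Stk11 levels were 8.94 to 9.54 on the 8 KO arrays and 10.04 to 10.38 on the 8 WT arrays, with no overlap (log2 difference averaged over the 4 agents -1.04 ± 0.1, limma adjusted p = 0.00015). At least 4 of the 5 tested hepatocyte markers were detected on every array.

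The 2 KO saline arrays did not differ beyond noise. Across 693 pairs of probes of the same gene, their differences had r = 0.029 (95% interval -0.046 to 0.1), while the lowest such r over the other 119 array pairs was 0.44. They were averaged and counted as 1 sample, so the fit held 15 samples and that group has no spread of its own.

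Of the 24 tested genes, Mbtps2 was detected on 3 of the 16 arrays and the other 23 on all of them. In none of the 13 comparisons was any of the 24 genes called at an adjusted p under 0.05. The lowest adjusted p reached by one of them was 0.054, for Dhcr7 between the genotypes under AICAR. The colour map of the 24 genes shows the largest shifts between single arrays of the oil and CCl4 groups and between the genotypes under AICAR.

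**Figure D1:**
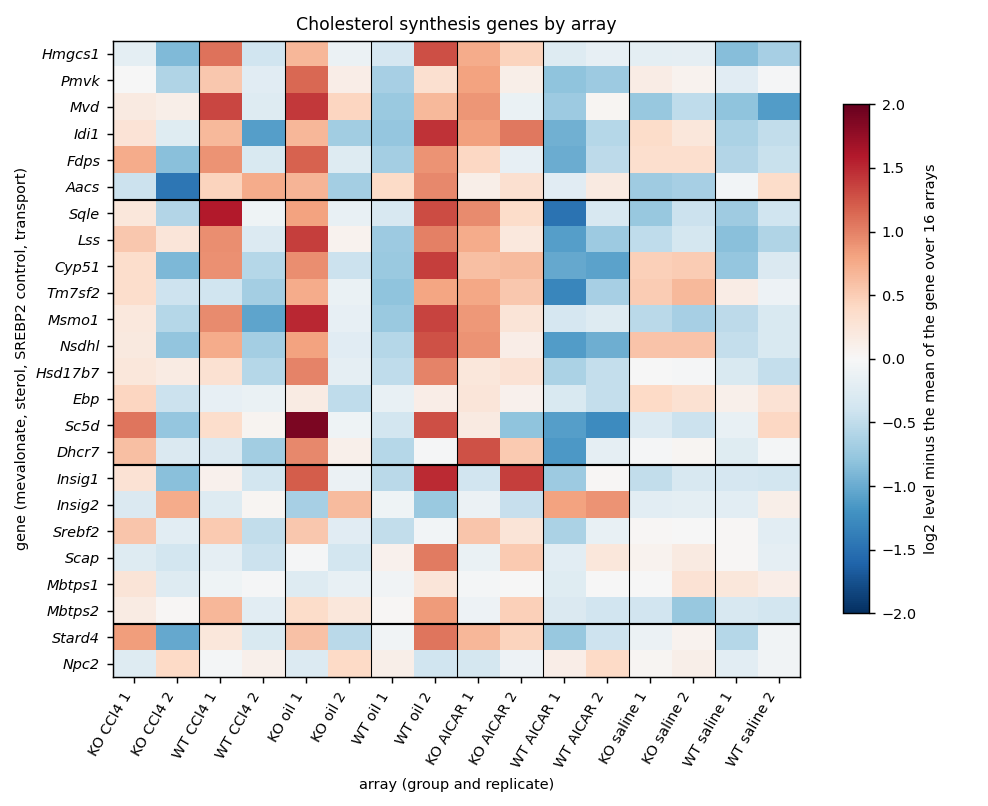
Each cell is a gene's normalized log2 level on an array minus that gene's mean over the 16 arrays, with genes in rows by role and arrays in columns by group, KO beside WT. WT AICAR columns are mostly blue, KO AICAR replicate 1 is above the mean for all 16 enzymes, and the columns of the oil and CCl4 groups differ within a group.

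The comparison of the genotypes under AICAR asked whether these genes depend on LKB1 when an AMPK activator is given. Of the 24 genes, 22 had a higher mean and 2 a lower mean in KO livers, with a median log2 difference of 0.86, against a median of -0.04 over all features, of which 47.3% were above 0. All 16 enzymes were on the higher side, with a median of 1.06 and a range of 0.24 to 1.71. None of the 24 genes was called, against 7.51% of all features (851 of 11338). At an unadjusted p under 0.05 there were 9 of the 24, 8 higher and 1 lower, against 10.9% of all features higher and 12.8% lower. For 17 genes both KO AICAR arrays lay above both WT AICAR arrays, against 25.9% of all features, and for 2 genes both lay below, against 31.5%. The 17 included all 10 tested enzymes of the sterol branch. The enzymes also moved together between the 2 arrays of a group, by a median of 1.1 in KO oil livers and -1.6 in WT oil livers. Counts of them, here and in the other comparisons, therefore do not weigh as separate genes.

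In the sterol branch, Dhcr7, the reductase of the last step, had levels of 11.12 and 10.37 on the KO AICAR arrays, against 8.7 and 9.67 on the WT AICAR arrays. Its difference was 1.56 ± 0.43 (SE, 2 against 2 samples; limma adjusted p = 0.054). Tm7sf2, a sterol reductase, stood at 9.98 and 9.76 in KO livers under AICAR, against 7.91 and 8.56 in WT livers, a difference of 1.64 ± 0.48 (limma adjusted p = 0.065). For both enzymes the groups were separate, and both values sat just above the threshold.

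Cyp51, which demethylates lanosterol, had 11.34 and 11.38 in KO AICAR livers, against 9.72 and 9.67 in WT AICAR livers, so that its arrays within a group nearly coincided. Its difference was 1.67 ± 0.71, with limma adjusted p = 0.18, and the SE takes in the spread of Cyp51 within all groups, the oil and CCl4 groups included. Sqle, the squalene epoxidase, had 11.72 and 11.13 in KO livers and 9.3 and 10.44 in WT livers under AICAR, a difference of 1.56 ± 0.66 (limma adjusted p = 0.18). Nsdhl, a sterol dehydrogenase, differed by 1.57 ± 0.63 and Lss, which closes the rings of lanosterol, by 1.4 ± 0.58. The smallest differences of the branch were those of Sc5d, Msmo1, Hsd17b7 and Ebp, at 0.55 to 0.87.

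In the mevalonate branch, Idi1, the isomerase that makes the reactive isoprenoid unit, had 8.75 and 8.98 in KO AICAR livers, against 6.97 and 7.35 in WT AICAR livers (difference 1.71 ± 0.71, limma adjusted p = 0.17). Pmvk, the kinase that acts on phosphomevalonate, had 9.63 and 8.95 in KO livers and 8.02 and 8.11 in WT livers under AICAR (difference 1.22 ± 0.43). Both were separate between genotypes. Hmgcs1, the cytosolic synthase of hydroxymethylglutaryl-CoA, had 15.07 and 14.78 in KO AICAR livers, against 14.08 and 14.16 in WT AICAR livers (difference 0.81 ± 0.55, limma adjusted p = 0.4). Fdps, the farnesyl diphosphate synthase, had 12.89 and 12.32 in KO livers and 11.48 and 11.95 in WT livers (difference 0.89 ± 0.67). Mvd and Aacs, the enzymes whose arrays overlapped between the genotypes under AICAR, had differences of 0.72 ± 0.6 and 0.24 ± 0.44.

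Among the control genes, Insig2 went against the enzymes. It had 12.8 and 12.45 in KO AICAR livers, against 13.72 and 13.82 in WT AICAR livers (difference -1.15 ± 0.43, limma adjusted p = 0.13). With the probe used, these WT AICAR levels were the highest among the 16 arrays. The other kept Insig2 probes differed in the same direction under AICAR, by -0.82 and -1.16. Their highest levels were on KO oil replicate 2 (12.61 and 11.18), against 12.13 and 12.14, and 10.7 and 11.1, on the WT AICAR arrays. Insig1 had 10.63 and 12.41 in KO livers and 10.29 and 11.05 in WT livers under AICAR, and the groups overlapped (difference 0.85 ± 0.73). Without KO AICAR replicate 2 the Insig1 difference was -0.04. Srebf2, which encodes SREBP2, had 9.34 and 9.05 in KO AICAR livers, against 8.16 and 8.65 in WT AICAR livers (difference 0.79 ± 0.39, limma adjusted p = 0.25). Scap had 9.69 and 10.35 in KO livers and 9.61 and 10.06 in WT livers (difference 0.19 ± 0.32), and leaving out 1 array could turn its direction (down to -0.14 without KO AICAR replicate 2). Mbtps1 differed by 0.09 ± 0.21, and Mbtps2, detected on 1 of the 2 KO AICAR arrays and on none of the 2 WT AICAR arrays, gave no bound above 1-fold.

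Of the transport genes, Stard4, a soluble sterol carrier, had 11.43 and 11.21 in KO AICAR livers, against 10 and 10.35 in WT AICAR livers (difference 1.15 ± 0.58, limma adjusted p = 0.26). Npc2, which carries cholesterol out of lysosomes, had 10.39 and 10.63 in KO livers and 10.87 and 11.14 in WT livers (difference -0.49).

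**Figure D2:**
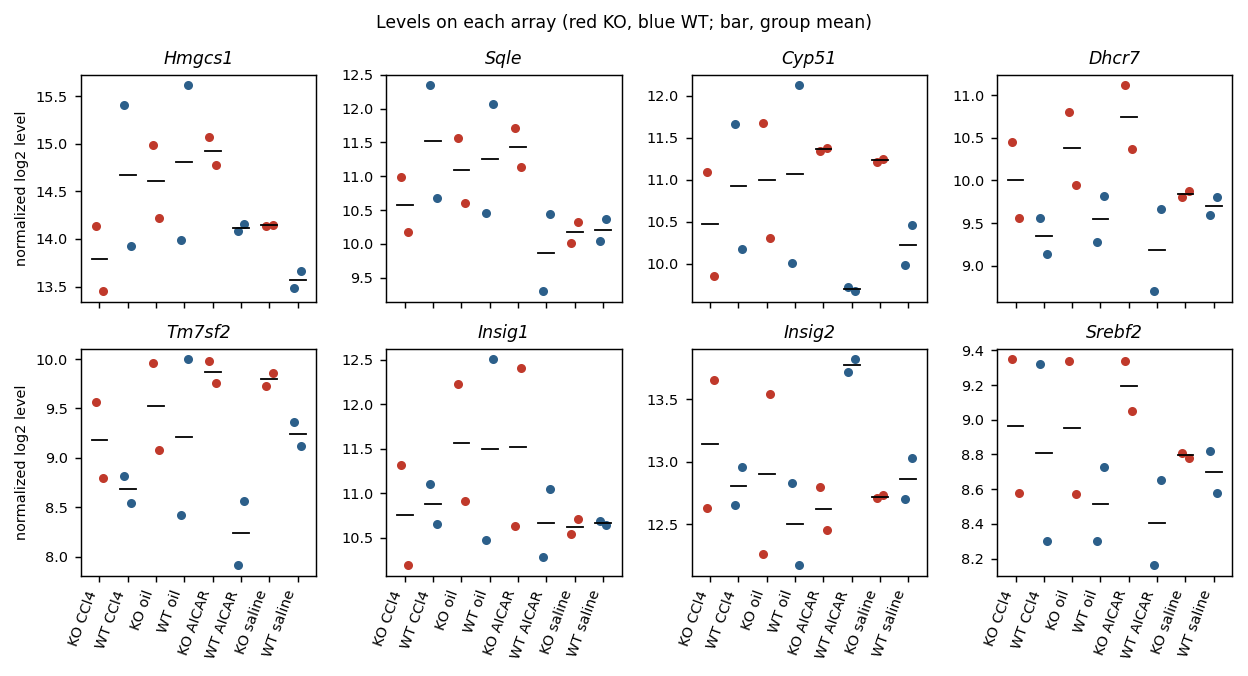
Points are the normalized log2 levels of 8 genes on single arrays, red for KO and blue for WT, and the bar is the group mean, with groups along the axis. Under AICAR the KO and WT points of Hmgcs1, Sqle, Cyp51, Dhcr7, Tm7sf2, Insig2 and Srebf2 are separate, with Insig2 lower in KO and the others higher, while the WT oil points of Cyp51 lie at 10.01 and 12.13.

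The call depended on which arrays set the spread. When only the 4 AICAR arrays were fitted, limma called 8 of the 24 genes (33.3%), against 9.21% of all features. Idi1, Cyp51, Nsdhl, Tm7sf2, Lss, Pmvk and Stard4 were higher and Insig2 was lower in KO, with limma adjusted p between 0.0069 and 0.043, and Dhcr7 had 0.06. That fit has 2 residual degrees of freedom, where the fit over all groups has 7.

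Markers of other liver cells moved in the same comparison. Over all features, 5980 of 11338 were lower in KO AICAR livers. Of the 7 stellate cell markers, all 7 were lower there (median difference -0.6). Of these 7, Col1a1 and Pdgfrb were called, against 7.51% of all features. The summed linear level of the stellate cell markers was 9620 to 10300 in KO, against 14500 to 16700 in WT. Of the 5 tested Kupffer cell markers 4 were lower, with sums of 7780 to 10800 in KO and 13700 to 19500 in WT. All 4 neutrophil markers were lower, with sums of 1440 to 3570 in KO and 4000 to 6100 in WT. The 5 tested hepatocyte markers summed to 161000 to 169000 in KO and 159000 to 161000 in WT. Singly, 2 of these 5 were higher and 3 lower in KO, with differences of -1.04 to 0.67 and a median of -0.05. Summed sinusoidal endothelial markers overlapped, at 9180 to 10600 in KO and 8840 to 12500 in WT. KO AICAR arrays had 12964 and 13161 detected probes and WT AICAR arrays 13730 and 13494. The part of these shifts in the difference of the sterol genes was not tested.

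Next, AICAR was set against saline within each genotype. In KO livers 18 genes were above their saline level and 6 below it, a median of 0.38, against -0.05 over all features, of which 45.4% were above 0. In WT livers 8 were above and 16 below, a median of -0.23, against 0.02 and 52.3% above 0 over all features. The WT median was -0.03 without WT AICAR replicate 1 and -0.41 without replicate 2. Limma called none of the 24 in either genotype, against 1.19% of all features in KO and 0.00882% in WT, and 0 of the 24 had an unadjusted p under 0.05 in either, against 12.2% and 10.6%. The AICAR arrays are those of the genotype comparison above.

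In KO livers the smallest p-values among the 24 were those of Mbtps2, which was near background, and Dhcr7. Dhcr7 had 11.12 and 10.37 under AICAR, against 9.81 and 9.88 on the saline arrays (difference 0.9 ± 0.53, 2 against 1 samples, limma adjusted p = 0.56). Mbtps2 had 5.23 and 5.81, against 4.95 and 4.57 (0.76 ± 0.4, limma adjusted p = 0.51), and no bound above 1-fold. In WT livers they were Insig2 and Tm7sf2. Insig2 had 13.72 and 13.82 under AICAR, against 12.7 and 13.03 under saline (difference 0.9 ± 0.43, limma adjusted p = 0.49). Tm7sf2 had 7.91 and 8.56 under AICAR, against 9.36 and 9.12 under saline (difference -1 ± 0.48, limma adjusted p = 0.49). For each of these genes the 2 groups did not overlap. That was so in KO livers for 31.9% of all features higher and 39.4% lower under AICAR, and in WT livers for 28.1% higher and 24.2% lower.

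The test of whether AICAR acted differently in the genotypes is the interaction, the AICAR minus saline difference in KO minus that in WT. It was above 0 for 21 of the 24 genes and for all 16 enzymes, with medians of 0.73 and 0.92, against a median of -0.04 and 47.1% above 0 over all features. Limma called none of the 24, against 0.3% of all features, and 0 had an unadjusted p under 0.05, against 9.16%. Dhcr7 had an interaction of 1.42 ± 0.68 (95% interval -0.09 to 2.93, limma adjusted p = 0.57) and Aacs one of 1.09 ± 0.7 (-0.46 to 2.63, adjusted p = 0.68). The interval of Cyp51 was -1.83 to 3.13, so neither a large difference nor none can be read from it. The group without a spread of its own, KO saline, enters this test.

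**Figure D3:**
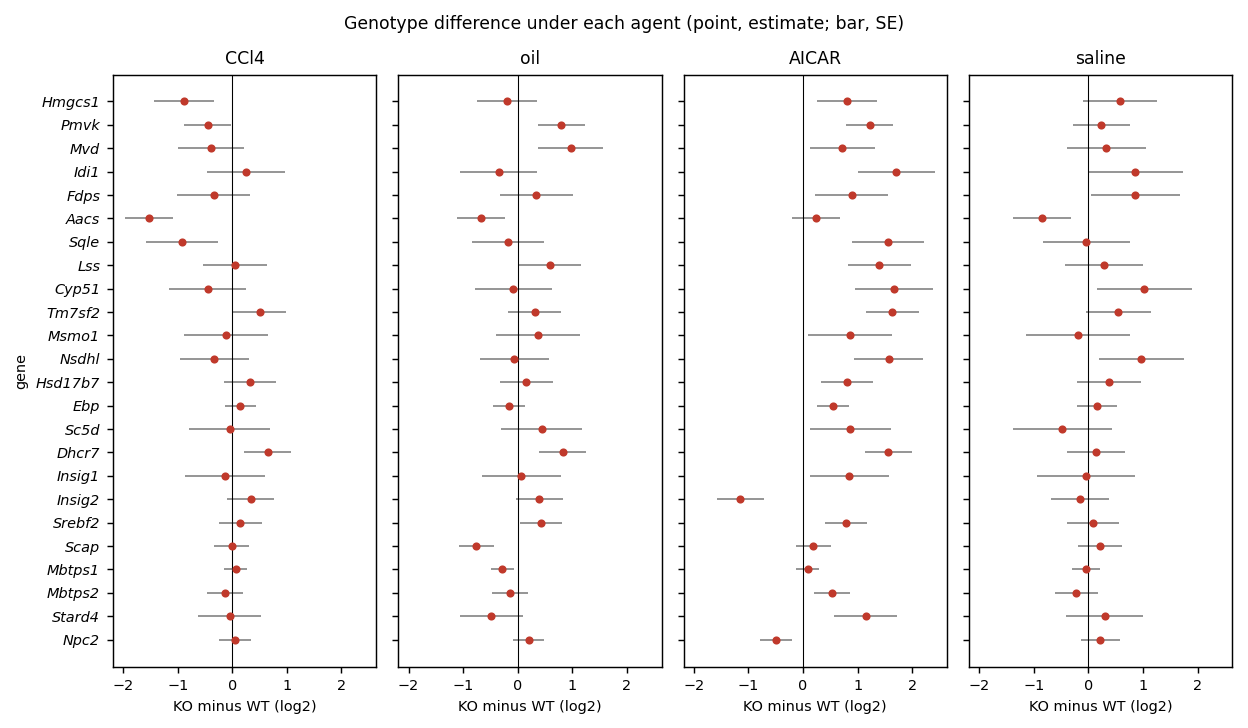
Points are the KO minus WT log2 difference of each gene under each agent, and bars are 1 SE from the limma fit over all groups. Under AICAR all 16 enzymes lie above 0 and Insig2 lies at -1.15. Under CCl4, oil and saline the points lie on both sides of 0, with 12 of the 16 enzymes above 0 under saline.

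Averaged over the 4 agents, 19 of the 24 genes were higher and 5 lower in KO livers, with a median of 0.23, against -0.02 over all features, of which 47.6% were above 0. Leaving out 1 array gave medians of 0.09 (without KO oil replicate 1) to 0.44 (without KO oil replicate 2). All 10 enzymes of the sterol branch were on the higher side, by 0.1 to 0.8. None of the 24 was called, against 9.22% of all features. At an unadjusted p under 0.05 there were 3 (Dhcr7, Aacs and Tm7sf2), against 24.4% of all features, so the share among the 24 was below the background. The average includes the AICAR groups described above.

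Dhcr7 averaged 10.24 in KO and 9.45 in WT, a difference of 0.8 ± 0.23 (limma adjusted p = 0.056), and it was called in 10 of the 26 other fits. Aacs, the acetoacetyl-CoA synthetase that feeds ketone-derived units into the pathway, averaged 10.55 in KO and 11.26 in WT, a difference of -0.7 ± 0.23 (limma adjusted p = 0.092), so it ran against the other enzymes. The remaining genes singled out for their role had differences of 0.54 ± 0.38 (Cyp51), 0.44 ± 0.35 (Fdps), 0.37 ± 0.21 (Srebf2), 0.23 ± 0.31 (Stard4), 0.19 ± 0.39 (Insig1), 0.1 ± 0.35 (Sqle), 0.08 ± 0.29 (Hmgcs1), -0.09 ± 0.17 (Scap) and -0.14 ± 0.23 (Insig2). Each of these is within 2 SE of 0. The direction of Hmgcs1, Sqle, Insig1, Insig2, Scap and Stard4 turned when 1 array was left out, for Stard4 to a value that rounds to 0.

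Over both vehicles, 17 genes were higher and 7 lower in KO (median 0.2, against -0.01 and 48.8% above 0 over all features). That direction rested on single arrays: the median was -0.01 without KO oil replicate 1 and -0.09 without WT oil replicate 1, but 0.46 without KO oil replicate 2 and 0.56 without WT oil replicate 2. Limma called none of the 24, against 1.32% of all features, and 0 had an unadjusted p under 0.05, against 12.4%. The smallest p-values were those of Aacs, at 11.59 and 10.23 on the KO oil arrays against 11.29 and 11.86 on the WT oil arrays (difference over both vehicles -0.76 ± 0.35, limma adjusted p = 0.42) and Pmvk, at 9.97 and 8.95 against 8.17 and 9.15 on the same arrays (0.52 ± 0.34, limma adjusted p = 0.6).

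In oil alone 13 genes were higher and 11 lower in KO, a median of 0.12, against 48.7% of all features above 0, and leaving out 1 array moved the median between -0.52 and 0.81. None was called, against 1.2% of all features, and Scap alone had an unadjusted p under 0.05, against 15.7%. Scap had 9.8 and 9.46 in KO oil livers, against 9.91 and 10.86 in WT oil livers (difference -0.76 ± 0.32, limma adjusted p = 0.3). Its groups were separate, but a WT array at 10.86 gave most of the distance, and the difference was -0.28 without WT oil replicate 2. Dhcr7 had 10.8 and 9.95 in KO oil livers, against 9.28 and 9.82 in WT oil livers (difference 0.83 ± 0.43, limma adjusted p = 0.39).

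In saline 16 genes were higher and 8 lower in KO, a median of 0.21, against 50.6% of all features above 0, in a comparison of 1 KO sample with 2 WT samples. For 15 genes the KO saline sample lay above both WT saline arrays, against 36.1% of all features, and for 5 it lay below both, against 35.2%. Limma called none of the 24, against 0.132% of all features, and 0 had an unadjusted p under 0.05, against 4.78%. Aacs had 10.19 and 10.24 on the KO saline arrays, against 10.85 and 11.27 on the WT saline arrays (difference -0.85 ± 0.54, limma adjusted p = 1). Nsdhl had 10.12 and 10.13 on the KO saline arrays, against 9.07 and 9.24 on the WT saline arrays (difference 0.97 ± 0.78, limma adjusted p = 1). Cyp51 had the highest difference there, at 1.02 ± 0.87, with 11.21 and 11.25 in KO and 9.98 and 10.46 in WT.

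Under CCl4 the genes lay on both sides of 0: 10 were higher and 14 lower in KO, a median of -0.05, against -0.02 and 47.5% above 0 over all features. The median was 0.23 without KO CCl4 replicate 2 and 0.24 without WT CCl4 replicate 1, and as low as -0.45 without WT CCl4 replicate 2. None was called, against 1.29% of all features, and Aacs alone had an unadjusted p under 0.05, against 11.7%. Aacs had 10.48 and 9.46 in KO CCl4 livers, against 11.35 and 11.65 in WT CCl4 livers, and the groups were separate (difference -1.53 ± 0.44, limma adjusted p = 0.15). Hmgcs1 had 14.14 and 13.45 in KO CCl4 livers, against 15.41 and 13.93 in WT CCl4 livers, and the groups overlapped (difference -0.88 ± 0.55, limma adjusted p = 0.61). The WT array at 15.41 stood apart from its fellow, and without it the Hmgcs1 difference was -0.14.

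CCl4 was also set against its vehicle. In KO livers 6 genes were above their oil level and 18 below it, a median of -0.36, against 53.9% of all features above 0. That median was 0.06 without KO oil replicate 1, -0.1 without KO CCl4 replicate 2, -0.81 without KO CCl4 replicate 1 and -0.89 without KO oil replicate 2. In WT livers 8 were above and 16 below, a median of -0.15, against 51.1%. That median was 0.46 without WT oil replicate 2 and 0.19 without WT CCl4 replicate 2, against -0.65 and -0.5 without the other array of each group, so the direction in either genotype rested on single arrays. Limma called 0 features of 11338 in either genotype. At an unadjusted p under 0.05 there were 0 of the 24 in KO, against 3.55% of all features, and 1 in WT, against 9.29%. In KO livers Pmvk had 8.83 and 8.23 under CCl4, against 9.97 and 8.95 in oil (difference -0.93 ± 0.43), and Aacs differed by -0.94 ± 0.44 (limma adjusted p = 1 for both).

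The 1 gene in WT was Scap, which had 9.65 and 9.4 under CCl4, against 9.91 and 10.86 in oil (difference -0.86 ± 0.32, limma adjusted p = 0.51). Tm7sf2 had 8.82 and 8.54 in WT CCl4 livers, against 8.42 and 10 in WT oil livers (difference -0.53 ± 0.48), and the sign turned, to 0.26, without WT oil replicate 2. The interaction of CCl4 with genotype was above 0 for 8 genes and below for 16, with a median of -0.24, against 50.6% of all features above 0. Leaving out 1 array moved that median between -0.88 (without WT oil replicate 2) and 0.38 (without WT oil replicate 1), and each of the 8 oil and CCl4 arrays moved it, 4 of them past 0. Limma called 0 features there, and 0 of the 24 genes had an unadjusted p under 0.05, against 4.07%. Pmvk had the smallest p of the 24, with an interaction of -1.26 ± 0.6, followed by Scap at 0.75 ± 0.46 (limma adjusted p = 1 for both).

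Oil against saline, averaged over the genotypes, compared the vehicles. They belong to separate treatments whose times of collection are not stated. An effect of the vehicle therefore cannot be told apart from other differences between the mice of the 2 treatments. Of the 24 genes 18 were above their saline level and 6 below it, a median of 0.34, against 0 and 50.9% above 0 over all features, and limma called 0 of the 11338 features. The median was 0.1 without WT oil replicate 2 and 0.15 without KO oil replicate 1, and 0.76 and 0.68 without the other array of each group. At an unadjusted p under 0.05 there were 3 of the 24, all higher, against 5.99% of all features higher. Mvd, the decarboxylase that makes the isoprenoid unit, had 9.51 and 8.51 on the KO oil arrays and 7.36 and 8.73 on the WT oil arrays, against 7.33 and 7.59 on the KO saline arrays and 7.29 and 6.97 on the WT saline arrays. Its difference was 1.23 ± 0.47 (limma adjusted p = 0.39), and Lss differed by 1.01. Mbtps2 differed by 0.83 ± 0.26 (limma adjusted p = 0.31), but it was detected on 1 of the 4 oil arrays and on 0 of the 4 saline arrays, which bounds it only at at least 1.04-fold higher in oil.

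The spread between the 2 arrays of a group was itself a feature of these genes. In the oil and CCl4 groups nearly all enzymes moved the same way between arrays, and by more than in the saline groups. In KO oil livers all 16 enzymes were higher on replicate 1 than on replicate 2, by a median of 1.1, and in WT oil livers all 16 were lower on replicate 1, with a median difference of -1.6. In KO CCl4 livers all 16 were higher on replicate 1, by a median of 0.8, and in WT CCl4 livers 14 of 16 were, by a median of 1.21. Over all features the medians of these differences were 0 to 0.02. In WT saline livers 13 of 16 were lower on replicate 1, by a median difference of -0.19, and on the KO saline arrays, which count as 1 sample, 10 of 16 were, with a median of -0.01. Under AICAR 12 of 16 were higher on replicate 1 in KO livers, by a median of 0.55. In WT AICAR livers 13 of 16 were lower on replicate 1, with a median difference of -0.26. That WT AICAR array was the lowest of the 16 arrays for 8 of the 16 enzymes.

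Single genes show the size of it. Cyp51 had 11.68 and 10.31 on the KO oil arrays and 10.01 and 12.13 on the WT oil arrays. Hmgcs1 had 14.99 and 14.22 in KO oil livers and 13.99 and 15.62 in WT oil livers. Fdps had 13.65 and 12.21 in KO oil livers and 11.8 and 13.38 in WT oil livers. In oil the genotypes overlapped for each of these genes.

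The number of the 24 genes whose arrays differed by over 1 log2 unit was 13 in KO oil livers, against 7.66% of all features, and 14 in WT oil livers, against 9.36%. It was 7 in KO CCl4 livers, against 8.61% of all features, and 10 in WT CCl4 livers, against 3.3%. Under AICAR it was 2 in KO, against 4.78%, and 1 in WT, against 2.13%. In saline it was 0 in KO, against 0.953%, where the arrays hold 1 sample, and 0 in WT, against 2.54%.

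Insig1 followed the enzymes and the Insig2 probe used did not. Insig1 had 12.23 and 10.91 on the KO oil arrays and 10.48 and 12.51 on the WT oil arrays. Insig2 had 12.26 and 13.54 on the KO oil arrays and 12.83 and 12.17 on the WT oil arrays, the reverse order in each group. In KO CCl4 livers Insig2 again had the reverse order, with 12.63 and 13.65, where Stard4 had 11.61 and 9.74. The reverse order was seen with each kept Insig2 probe in KO oil and KO CCl4 livers, but not in the WT groups. One other Insig2 probe read 11.34 and 11.47 in WT oil livers, and another 9.26 and 8.94 in WT CCl4 livers, both in the order of the enzymes. Under AICAR, Insig1 and the enzymes parted in KO livers: Insig1 was higher on replicate 2 (12.41) than on replicate 1 (10.63), while 12 of 16 enzymes were higher on replicate 1.

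**Figure D4:**
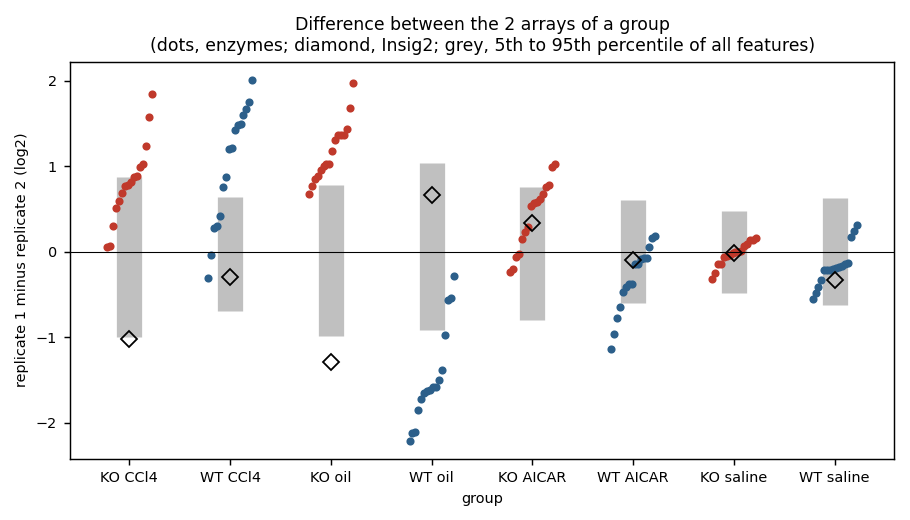
Dots are the 16 enzymes and the diamond is Insig2, each at its replicate 1 minus replicate 2 log2 difference within a group, red for KO and blue for WT, and the grey bar spans the 5th to 95th percentile of all tested features. Dots lie above 0 in KO oil and KO CCl4, below 0 in WT oil, and closer to 0 in the saline groups. The Insig2 probe used lies on the other side of 0 in the KO CCl4, WT CCl4, KO oil and WT oil groups, which in the WT groups did not hold for each Insig2 probe.

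Some other measures moved with the enzymes between arrays. Summed stellate cell markers were 8860 and 13300 on replicates 1 and 2 of KO oil livers, 17800 and 16300 in WT oil livers, 9570 and 14900 in KO CCl4 livers and 13400 and 17500 in WT CCl4 livers. Summed sinusoidal endothelial markers were 5780 and 7820 in KO oil livers, 12200 and 11200 in WT oil livers, 8180 and 9070 in KO CCl4 livers and 10800 and 11400 in WT CCl4 livers. Both sums were lower on the array with higher enzymes in each of these 4 groups. Summed Kupffer cell markers were 7610 on KO oil replicate 1 and 17900 on replicate 2, and 13600 on WT oil replicate 1 and 9910 on replicate 2, so the array with higher enzymes had the lower sum in both groups. They were 7820 and 15400 in KO CCl4 livers, but 12700 and 11300 in WT CCl4 livers, where the order was the other one. Summed neutrophil markers were 3340 and 2510 in KO oil livers, higher on the array with higher enzymes. They were lower on that array in WT oil (3450 and 2650), KO CCl4 (1680 and 5520) and WT CCl4 livers (4610 and 6090). Detected probes numbered 12233 and 13057 in KO oil livers, 13150 and 12719 in WT oil livers, 12518 and 13148 in KO CCl4 livers and 13056 and 13585 in WT CCl4 livers, fewer on the array with higher enzymes in each of these groups. Summed hepatocyte markers were 165000 and 156000 in KO oil livers and 152000 and 176000 in WT oil livers, and 193000 and 150000 in KO CCl4 livers and 164000 and 151000 in WT CCl4 livers, higher on the array with higher enzymes. Summed cholangiocyte markers were also higher there in KO oil (312 and 243), KO CCl4 (311 and 189) and WT CCl4 livers (347 and 338), but not in WT oil livers (184 and 140). The tested pancreatic acinar marker was higher there except in WT CCl4 livers (1610 and 1640). The part of these measures in the spread of the enzymes was not tested.

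Genes around the pathway were counted from 4 lists chosen for their function. Targets of the related factor SREBP1, which drives fatty acid synthesis, were also mostly on the higher side under AICAR: 11 of 12 tested (of 13 listed) were higher in KO, with a median of 1.04, and 2 were called, against 7.51% of all features. Acly, which makes cytosolic acetyl-CoA, had 14.55 and 14.62 in KO AICAR livers, against 13.04 and 12.92 in WT AICAR livers, and rose by 1.6 ± 0.27 (limma adjusted p = 0.0059). Elovl6, a fatty acid elongase, had 11.79 and 10.91 in KO livers, against 8.99 and 9.17 in WT livers, and rose by 2.27 ± 0.46 (limma adjusted p = 0.014). Averaged over the agents, Acly rose by 1.04 ± 0.14 (adjusted p = 0.0013), Elovl6 by 1.6 ± 0.24 (0.0023) and Fasn, the fatty acid synthase, by 0.95 ± 0.23 (0.03) in KO, where Fasn was detected on 8 of 8 KO arrays and 6 of 8 WT arrays, all at low levels (4.98 to 7.46), while the list's median was -0.02 over 12 genes, since 7 of them were lower.

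Between the arrays of a group the SREBP1 targets moved with the sterol enzymes in oil, by a median of 1.04 in KO (12 of 12 higher on replicate 1) and -0.99 in WT (0 of 12). In KO CCl4 livers 11 of 12 were higher on replicate 1, by a median of 0.65. In WT CCl4 livers 6 of 12 were, with a median of -0.01.

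The list of genes of sterol sensing by LXR, storage and export had medians near 0, at -0.04 under AICAR and -0.05 over all agents for 12 of 18 genes, and between arrays in oil at 0.04 in KO and -0.06 in WT. Of this list 3 genes were called between the genotypes over all agents, against 9.22% of all features. Abcg5 and Abcg8, whose products together pump sterols into bile, rose in KO by 0.94 ± 0.15 (limma adjusted p = 0.0031) and 1.12 ± 0.17 (0.0021), and Cyp27a1, a sterol hydroxylase, fell by 0.76 (limma adjusted p = 0.0053). Under CCl4 Abcg8 had 13.03 and 12.48 in KO livers, against 10.9 and 11.09 in WT livers, and rose by 1.76 ± 0.31 (limma adjusted p = 0.024), with Abcg5 at 1.64 ± 0.28 (0.02). In oil Abcg5 rose by 1.41 ± 0.28 (limma adjusted p = 0.042).

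In the isoprenoid branch, which uses farnesyl and geranylgeranyl units, the median under AICAR was -0.11 over 9 of 13 genes. Of these 9, 1 was called, a share near the 7.51% of all features: Rabggtb, a subunit of the transferase that prenylates Rab proteins, had 12.84 and 12.8 in KO AICAR livers, against 12.01 and 11.86 in WT AICAR livers, and rose by 0.88 ± 0.17 (limma adjusted p = 0.012). Other sterol enzymes and SREBP targets had a median of -0.04 under AICAR over 9 of 14 genes, and 0 were called, against 7.51%. The smallest p-values of that list between the genotypes over all agents were those of Acat1, a mitochondrial thiolase, at -0.46 ± 0.15 (limma adjusted p = 0.081), and Cyb5r3, a cytochrome b5 reductase, at -0.25 ± 0.1 (0.16). Acat1 differed in direction between agents, with 7.22 and 6.39 in KO AICAR livers, against 6.23 and 6.11 in WT AICAR livers (0.64 ± 0.28, limma adjusted p = 0.19), and 5.5 and 5.89 on the KO saline arrays, against 7.33 and 7.38 on the WT saline arrays (-1.66 ± 0.34, limma adjusted p = 0.15).

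**Figure D5:**
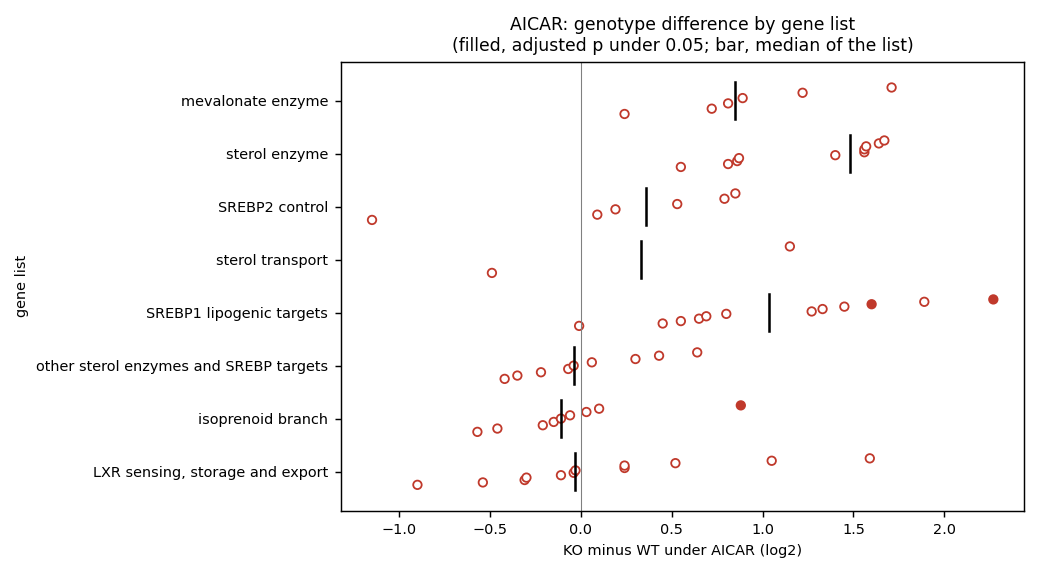
Circles are genes at their KO minus WT log2 difference under AICAR, filled where limma's adjusted p is under 0.05, and the bar is the median of the list. The bars of the mevalonate enzymes, the sterol enzymes and the SREBP1 targets lie at 0.85, 1.48 and 1.04, and those of the other sterol genes, the isoprenoid branch and the LXR list between -0.11 and -0.04.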

How the data were processed

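Total liver RNA was labelled as biotinylated cRNA and hybridised to 1-colour Illumina arrays, per the labels' protocols. The authors deposited, for 25697 probes on 16 arrays, a linear intensity that is not normalized and a detection p-value per probe. They also deposited a table of normalized intensity, and the sources used here do not state its method. Per the submitters' processing notes GenomeStudio was used.

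In R 4.3.3 with limma 3.58.1, intensities were corrected with neqc (offset 16, negative controls inferred from the detection p-values), quantile normalized and taken to log2. Probes were kept where 2 or more arrays had a detection p-value under 0.05, which left 15411, and 1 probe per gene was used, by highest mean intensity. The platform annotation gave 1 symbol for 23978 probes and none for 1719, and 23962 matched the gene table of GRCm38.p6. For 5 of the genes, 10 other probes gave 130 differences, of which 27 differed in sign from the probe used, 0 of them with an unadjusted p under 0.05.

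A model of group means over 15 samples (lmFit and eBayes, 7 residual and 3.74 prior degrees of freedom) gave 13 comparisons, with two-sided p-values adjusted by Benjamini and Hochberg over all 11338 features. The 4 lists of neighbouring genes and 7 of cell markers are described by counts, and the scripts were tested on simulated data. Genes named are called ones, or the 2 with the smallest p in a comparison, plus Hmgcs1, Sqle, Fdps, Cyp51, Insig1, Insig2, Srebf2, Scap, Stard4 and Mylip, and Stk11. In a neighbouring list, called genes are named, or the 2 with the smallest p between the genotypes over all agents. Other genes (such as Ebp, Msmo1, Sc5d, Hsd17b7, Lss, Npc2 and Mbtps1) complete the account of the 24 or were chosen after their values were seen. The genes and lists were chosen with earlier results of these data known. Precision is limited by the number of arrays.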

Additional observations from a re-analysis of the deposited data

Results flagged for a closer look

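For 3 enzymes and Npc2, both AICAR arrays lay on one side of the saline level in KO livers, which is the mean of 2 arrays counted as 1 sample, and on the other side of both saline arrays in WT livers. These are 16.7% of the 24 genes, against 15.7% of all features, so the count is no result about these genes. For Pmvk one KO AICAR array, at 8.95, lay below the KO saline array at 8.97. The AICAR minus saline difference was 0.35 in KO and -0.63 in WT for Pmvk (interaction 0.99), 0.13 in KO and -0.52 in WT for Cyp51 (interaction 0.65), and 0.27 in KO and -0.17 in WT for Hsd17b7 (interaction 0.43). For Npc2 it was -0.3 in KO and 0.41 in WT (interaction -0.71).

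Set the other way, 4 genes had KO arrays wholly on one side of the WT arrays under AICAR and wholly on the other under saline. These are 16.7% of the 24 genes, against 15% of all features, so this count too is no result about these genes. The KO minus WT difference was 0.86 under AICAR and -0.19 under saline for Msmo1 (interaction 1.05), and 0.87 and -0.48 for Sc5d (interaction 1.35). It was 0.53 and -0.22 for Mbtps2 (interaction 0.75), which was near background and detected on no saline array. For Npc2 it was -0.49 and 0.22 (interaction -0.71). Limma's adjusted p of these interactions was 0.68 to 0.9, so none passed the threshold, and the KO saline side is 1 sample.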

How the results depend on the processing

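Of 13 comparisons, 11 kept a count of 0 called genes among the 24 in each alternative that was run. The 2 others are those of the genotypes over all agents and under AICAR, where limma's adjusted p of Dhcr7 lies near the threshold. Over all agents 1 gene was called with no background correction, with the authors' normalized values, with a stricter probe filter and with trended variance, and 3 with all 16 arrays as samples. Under AICAR the counts were 1, 1, 1 and 1 for those settings, 2 with all 16 arrays as samples, 2 with array weights and 8 with only the arrays compared. With the replicate number as a block and all 16 arrays as samples the count was 1 in each of these comparisons. Leaving out 1 array gave 0 to 1 in each. The genes called with an array left out were Tm7sf2 (without WT oil replicate 2), Aacs (without KO oil replicate 1) and Dhcr7 (without KO oil replicate 2, KO CCl4 replicate 2, WT AICAR replicate 2 or KO AICAR replicate 2) over all agents. Under AICAR they were Tm7sf2 (without either WT oil array) and Dhcr7 (without either KO oil or either KO CCl4 array).

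Of 44 named values recomputed 1175 times, 1127 kept direction and side of the threshold, 31 were newly called, 0 lost a call and 17 turned sign. Every turn came from leaving out 1 array. Over all agents the leave-out values spanned -0.13 to 0.28 for Hmgcs1, -0.11 to 0.31 for Sqle, -0.07 to 0.44 for Insig1, -0.3 to 0.02 for Insig2, -0.21 to 0.03 for Scap and 0 to 0.46 for Stard4. Under AICAR they spanned -0.04 to 1.74 for Insig1 and -0.14 to 0.52 for Scap, and for Tm7sf2 in WT CCl4 over oil -1.32 to 0.26. The cause was not tested. The median of the 24 genes between the genotypes in oil spanned -0.52 (without WT oil replicate 1) to 0.81 (without WT oil replicate 2), and under AICAR 0.74 to 1.17.

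The differences between replicates correlated across features with no common sign. The correlation was -0.4 between the genotypes in oil, 0.06 under CCl4 and -0.09 under AICAR. It was 0.48 between CCl4 and oil in KO but -0.27 in WT, and -0.13 between AICAR and saline in WT. What samples of the same replicate number share is not stated in the labels and was not tested, so the block has no known pairing behind it. Fitting only the arrays compared is the same fit for the average over all agents and was not run there. Each group had 2 arrays, leaving out 1 leaves a lone sample assumed to vary like the other groups, and probes near background (Mbtps2) carry only bounds.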

Other observations

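The discordant Insig1 arrays of KO AICAR livers were seen with each kept Insig1 probe. The other 2 probes read 9.8 and 11.2, and 9.72 and 10.74, on KO AICAR replicates 1 and 2, against 9.48 and 9.75, and 9.05 and 9.41, on the WT AICAR arrays. The Insig1 probes differed between the genotypes by 0.85, 0.89 and 1, with unadjusted limma p of 0.27, 0.24 and 0.15. For Sqle, the other probe read 10.43 and 9.8 in KO AICAR livers, against 7.65 and 8.85 in WT AICAR livers, a difference of 1.86 where the probe used gave 1.56.

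Summed cholangiocyte markers, of which 2 of 5 were tested, were 360 and 759 on the KO AICAR arrays, against 233 and 230 on the WT AICAR arrays. The 1 tested pancreatic acinar marker was 1770 and 1210 in KO AICAR livers, against 1030 and 1520 in WT AICAR livers.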
